A study of Mus musculus with 25 samples.

Results

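Dorsal root ganglia of BXD mice held the alpha tubulin transcript Tuba1c at a high level in 7 strains and at a low level in 18. A strain was counted as Tuba1c-high when its value for Tuba1c was 1000 or more and as Tuba1c-low when it was under 1000, so the groups were chosen by the measured level of Tuba1c itself, over all 25 strains of the series. BXD strains are inbred lines derived from a cross of C57BL6/J with DBA2/J, and almost everywhere in its genome a line carries 2 copies of the allele of a single parent. All mice were 8 weeks old and no strain received a treatment that the labels name. The Tuba1c-high strains were BXD9, BXD13, BXD21, BXD34 and BXD36, whose names end in TyJ, and BXD44 and BXD68, whose names end in RwwJ. The Tuba1c-low strains were 11 TyJ and 7 RwwJ strains. RNA of the ganglia was sequenced as 1 library per strain, so the strains were the replicates of a level, and how many animals, and of which sex, went into a library was not stated. The spread between them joins genotype, animal, dissection and library. The values were read counts that the authors had scaled between libraries and rounded, called scaled counts here.

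Alpha and beta tubulins pair to form the subunit from which microtubules are built. In sensory neurons, microtubules run along the axon and serve as the tracks of axonal transport. Tuba1a, Tuba1b and Tuba1c encode nearly identical alpha tubulins and lie next to each other on mouse chromosome 15, and Tuba1a is known as the main alpha tubulin gene of neurons. Messenger RNAs of abundant genes have at times been copied back into the genome as processed pseudogenes, which lack introns and lie away from the parent gene. Gm14150, on chromosome 2, is annotated as such a processed pseudogene.

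The coding sequences of these genes were compared first, from GENCODE M21 on build GRCm38, because the results turn on how alike they are. The Tuba1c coding sequence of 1350 bases aligned with Gm14150 at 97.48% identity, with 34 different bases. Its identity was 97.56% with Tuba1a and 98.37% with Tuba1b. Gm14150 was closer to Tuba1b, at 98.74% identity, than to Tuba1c. Of all 50-base windows in the Tuba1c coding sequence, 51.88% occurred without a mismatch in Gm14150, 63.18% in Tuba1a and 77.25% in Tuba1b. Neither the read length nor the treatment of reads with several matches is given in the sources used here, so reads of these genes could have been split between them and their levels are uncertain to that degree.

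A single library stood apart in its tissue markers. In BXD48, a Tuba1c-low strain, the summed scaled counts of 9 spinal cord markers were 15662, with the next strain, BXD6, at 5305. Without BXD48, limma called 0 genes on chromosome 15 and 2 genes in all, as with it, and the log2 differences reported below were 3.28 for Gm14150, -2.01 for ENSMUSG00000086809 and 0.22 for Tuba1a.

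Tuba1c lay at 2 separate levels. In the Tuba1c-high strains it stood at 4390 in BXD21, 3773 in BXD13, 3760 in BXD36, 3429 in BXD44, 3182 in BXD34, 3159 in BXD9 and 3073 in BXD68. In the Tuba1c-low strains it ran from 124 in BXD48 to 338 in BXD5, with a median of 163.5. The mean was 3538 ± 470.6 in Tuba1c-high strains (SD, n = 7) and 171.1 ± 47.1 in Tuba1c-low strains (SD, n = 18), a ratio of 20.7. These values chose the groups, so they are a description with no test.

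The strains next to the threshold were far from it. BXD68, the lowest Tuba1c-high strain at 3073, had 9.09 times the value of BXD5, the highest Tuba1c-low strain at 338. The next strain below BXD5 was BXD14, at 201. BXD5 also had the highest sum of adipose markers, 5616 with the next strain at 4259, and the part of this in its Tuba1c level was not tested. BXD5 widened the spread of the low level: the coefficient of variation was 13.3% in Tuba1c-high strains and 27.5% in Tuba1c-low strains, or 14.1% in Tuba1c-low strains without BXD5. Both levels occurred under both name endings, with 2 Tuba1c-high and 7 Tuba1c-low strains among RwwJ, and 5 Tuba1c-high and 11 Tuba1c-low strains among TyJ.

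**Figure D1:**
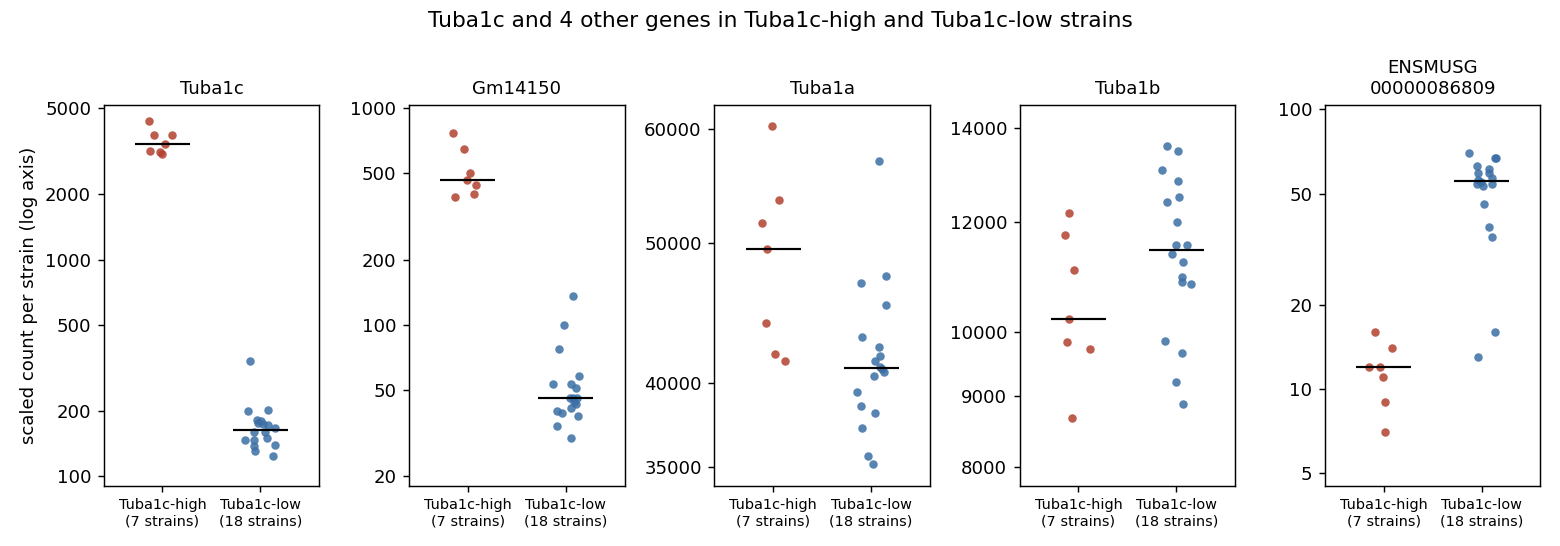
Scaled counts of 5 genes in every strain, on a log axis with a scale of its own in each panel, for 7 Tuba1c-high (left) and 18 Tuba1c-low strains (right). Points are strains and bars are medians. Tuba1c and Gm14150 were higher in every Tuba1c-high strain than in any Tuba1c-low strain, Tuba1a and Tuba1b overlapped between the levels, and ENSMUSG00000086809 was lower in the Tuba1c-high strains apart from 2 Tuba1c-low strains that lay within their range.

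By scaled count per kilobase, Tuba1c was a minor alpha tubulin even at its high level. The lengths take every annotated exon, and reads shared among these genes leave the levels and shares uncertain. Per kilobase of exon, Tuba1c averaged 1550 ± 206 scaled counts in Tuba1c-high strains (SD, n = 7) and 74.8 ± 20.6 in Tuba1c-low strains (SD, n = 18). On the same scale, Tuba1a averaged 27100 in Tuba1c-high and 23200 in Tuba1c-low strains, and Tuba1b averaged 5600 in Tuba1c-high and 6100 in Tuba1c-low strains. Tuba4a, which lies on chromosome 1, averaged 2420 in Tuba1c-high and 2520 in Tuba1c-low strains. Tuba1c made up 4.05% to 4.41% of the summed level per kilobase of Tuba1a, Tuba1b, Tuba1c, Tuba4a and Tuba8 in Tuba1c-high strains, and 0.17% to 0.556% in Tuba1c-low strains. The sum of those alpha tubulins without Tuba1c averaged 35200 ± 4350 per kilobase in Tuba1c-high strains and 31900 ± 3430 in Tuba1c-low strains. The difference of 0.142 on the log2 scale did not pass an exact permutation test, two-sided, of the 480700 possible divisions of the strains into 7 and 18 (p = 0.056). This sum holds Tuba1a and Tuba1b, which share sequence with Tuba1c, so it is not an independent measure of the split.

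The proportion of Tuba1c to Tuba1a was looked at after the values were seen. As a percent of the Tuba1a scaled count, Tuba1c was 7.67% in BXD34, 7.34% in BXD68, 7.31% in BXD13, 7.28% in BXD21, 7.17% in BXD9, 7.02% in BXD36 and 6.92% in BXD44. In Tuba1c-low strains the percentage ran from 0.293% to 0.949%, with a median of 0.376% and the highest value in BXD5. The coefficient of variation of the percentage was 3.38% in Tuba1c-high strains and 35.9% in Tuba1c-low strains, or 18.9% in Tuba1c-low strains without BXD5. The same ratio was taken to each of 15982 tested genes above 0 in every strain. In Tuba1c-high strains Tuba1a ranked 4, after Asl (2.72%), Arrdc1 (3.32%) and Tmem176a (3.33%) on other chromosomes, and the median gene had 21.9%. In Tuba1c-low strains Tuba1a ranked 10267, and the median gene had 32.4%. These values rest on the Tuba1c level that chose the groups and are a description.

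Correlations with Tuba1c within each level are given as a description with no test, because Tuba1c chose the groups. In the 7 Tuba1c-high strains, Tuba1c and Tuba1a had a Pearson r of 0.976 and a Spearman rho of 0.857. Without the 2 strains farthest from the median of Tuba1a, r was 0.971. Tuba1c and Tuba1b had r = 0.736 and rho = 0.821 in Tuba1c-high strains. Tuba1c and Tubb3, the beta tubulin of neurons, had r = 0.246 and rho = 0.286 there. In the 18 Tuba1c-low strains, Tuba1c and Tuba1a had r = -0.293 and rho = -0.278. Tuba1a and Tuba1b share sequence with Tuba1c, and the part of shared reads in these values was not tested.

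**Figure D2:**
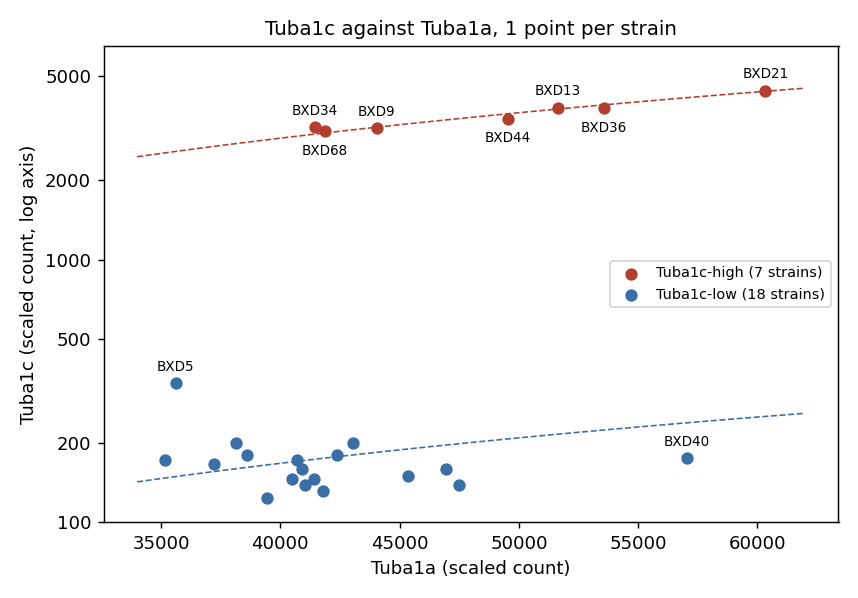
Tuba1c scaled count (log axis) against Tuba1a scaled count, 1 point per strain, with Tuba1c-high strains in red and Tuba1c-low strains in blue. Dashed lines show a constant Tuba1c share of Tuba1a at the mean of each level, 7.24% in Tuba1c-high and 0.419% in Tuba1c-low strains. The Tuba1c-high strains lie along their line, and among the Tuba1c-low strains BXD5 lies highest above its line.

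The comparison of Tuba1c-high with Tuba1c-low strains asked which other genes followed the level of Tuba1c. Of 16151 genes tested with limma and Benjamini-Hochberg adjustment, 2 passed at an adjusted p under 0.05 (0.0124%), with 1 higher and 1 lower in Tuba1c-high strains. At an unadjusted p under 0.05, 639 genes passed (3.96%), with 308 higher (1.91%) and 331 lower (2.05%). The gene next in order of p, Arhgap25 on chromosome 6, averaged 75.9 ± 33.1 in Tuba1c-high and 154.6 ± 45.9 in Tuba1c-low strains and did not pass (limma, log2 difference -1.06, adjusted p = 0.613). The median gene differed by -0.01 on the log2 scale, and the middle 90% of genes lay between -0.33 and 0.20. Limma called 0 genes for a difference of the effect between RwwJ and TyJ strains, with 235 genes at an unadjusted p under 0.05 (1.46%).

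Gm14150, the processed pseudogene on chromosome 2, was the gene called higher. Its scaled count was 767 in BXD44, 649 in BXD9, 503 in BXD21, 468 in BXD13, 442 in BXD36, 404 in BXD34 and 388 in BXD68. In Tuba1c-low strains it ran from 30 in BXD5 to 136 in BXD40, with a median of 46. Every Tuba1c-high strain lay above every Tuba1c-low strain, and Gm14150 was the only tested gene of which this held in either direction (0.00619% of genes tested).

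Gm14150 averaged 517.3 ± 140.0 in Tuba1c-high strains (SD, n = 7) and 54.2 ± 26.2 in Tuba1c-low strains (SD, n = 18). The log2 difference was 3.30 ± 0.21 (SE), with a 95% interval of 2.86 to 3.73, and it was the smallest p of the fit (limma, adjusted p = 1.35e-10). The values are also given by name ending, where the separation follows from that over all strains. Among TyJ strains Gm14150 ran from 404 to 649 in Tuba1c-high and from 30 to 136 in Tuba1c-low strains. Among RwwJ strains it ran from 388 to 767 in Tuba1c-high and from 38 to 53 in Tuba1c-low strains. Because Gm14150 shares sequence with Tuba1c, which chose the groups, its difference is not an independent measure of the split.

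The level of Gm14150 was not a fixed share of that of Tuba1c. Gm14150 was 11.5% to 22.4% of the Tuba1c scaled count in Tuba1c-high strains, with a median of 12.6%, and 8.9% to 77.7% in Tuba1c-low strains, with a median of 29.5%. Within the Tuba1c-high strains, the correlation of the pair was r = -0.043 and rho = 0.321. Without BXD44 and BXD9, the 2 strains farthest from the median of Gm14150, r was 0.979 in the 5 strains left. The correlation turned on those 2 strains, so no relation is read from it. As a share of the Tuba1a scaled count, Gm14150 stood apart in BXD44 at 1.55% and in BXD9 at 1.47%, while the other 5 Tuba1c-high strains lay between 0.825% and 0.974%. In Tuba1c-low strains this share ran from 0.08% to 0.241%. BXD5, the Tuba1c-low strain with the highest Tuba1c, had the lowest scaled count of Gm14150.

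No gene around Gm14150 was called. Of the 40 nearest tested genes on chromosome 2, limma called 0, and 3 had an unadjusted p under 0.05 (7.5%, beside 3.96% of all genes). The gene next to it on the proximal side, Nanp, differed by -0.16 on the log2 scale, and Nsfl1c on the distal side differed by 0.08. The range among the 40 genes was -0.39 for Angpt4 to 0.95 for the processed pseudogene Rps15a-ps7 on the log2 scale.

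Other copies of the tubulin sequence were looked for through the annotation. Transcripts of 18 other genes shared at least 1 window of 50 bases with the Tuba1c transcript, and 6 of these were in the table. Besides Tuba1a, Tuba1b and Gm14150 these were the processed pseudogenes Gm5620 and Gm15599, and Slc7a11, a cystine transporter that shares bases on the other strand. Gm5620 ran from 18 to 95 in Tuba1c-high and from 16 to 92 in Tuba1c-low strains. Gm15599 ran from 9 to 80 in Tuba1c-high and from 4 to 59 in Tuba1c-low strains. The levels of both pseudogenes overlapped. Gm15599, on chromosome 17, had a median of 19 in Tuba1c-high and 8 in Tuba1c-low strains, and all 7 Tuba1c-high strains lay above the median of the Tuba1c-low strains, but it did not pass (limma, log2 difference 1.21 ± 0.44, unadjusted p = 0.0102, adjusted p = 0.96). Slc7a11 ran from 125 to 543 in Tuba1c-high and from 169 to 1210 in Tuba1c-low strains.

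The gene called lower was ENSMUSG00000086809, which has no symbol in the annotation and is named here after its values were seen. It ran from 7 in BXD13 to 16 in BXD68 in Tuba1c-high strains, with a median of 12. In Tuba1c-low strains it was 13 in BXD89 and 16 in BXD28, inside the range of the Tuba1c-high strains, and 35 to 70 in the other 16. The mean was 11.6 ± 3.0 in Tuba1c-high strains (SD, n = 7) and 51.3 ± 16.2 in Tuba1c-low strains (SD, n = 18). The log2 difference was -1.99 ± 0.26 (limma, adjusted p = 0.000263) at levels where few reads lie behind each value. In RwwJ strains alone the difference was -1.60 and did not pass (limma, adjusted p = 1.0, 2 Tuba1c-high against 7 Tuba1c-low strains). Its chromosome is not used here because the annotation does not list it.

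**Figure D3:**
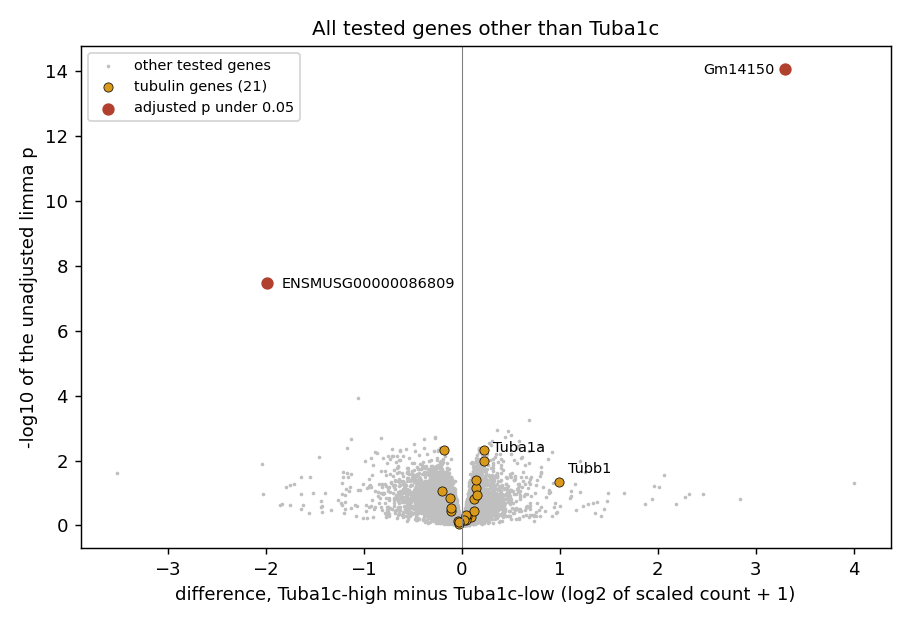
Log2 difference of Tuba1c-high minus Tuba1c-low strains (x axis) against -log10 of the unadjusted limma p (y axis) for 16151 tested genes other than Tuba1c. Red points are the 2 genes with an adjusted p under 0.05, orange points the 21 tested tubulin genes. Gm14150 at 3.30 and ENSMUSG00000086809 at -1.99 stand apart, and the tubulin genes lie among the other genes.

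None of the other tubulins passed the test. Of 24 listed tubulin and gamma-tubulin complex genes, Tuba3a, Tuba3b and Tubal3 were not tested. Limma called 0 of the remaining 21 at an adjusted p under 0.05. At an unadjusted p under 0.05, 5 of the 21 passed, a larger share than the 3.96% of all genes. The exact rank-sum test also called 0 of them, but at 7 against 18 strains the smallest adjusted p it allows for a single gene is 0.0672. Tuba1a ran from 41464 to 60339 in Tuba1c-high strains, with a median of 49552, and from 35152 to 57046 in Tuba1c-low strains, with a median of 40980. All 7 Tuba1c-high strains lay above the median of the Tuba1c-low strains, but only BXD21 lay above all of them, and BXD40 was the highest Tuba1c-low strain. The log2 difference of Tuba1a was 0.22 ± 0.08 (limma, unadjusted p = 0.0103, adjusted p = 0.96, and unadjusted exact permutation p = 0.00856). Tuba1a and Tuba1b share sequence with Tuba1c, which chose the groups, so their differences are not independent measures of the split.

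The difference of Tuba1b had the opposite sign. It ran from 8684 to 12168 in Tuba1c-high strains, with a median of 10224, and from 8879 to 13606 in Tuba1c-low strains, with a median of 11457. The log2 difference was -0.12 ± 0.08 (limma, adjusted p = 0.96), and the levels overlapped through almost the whole range. Tuba4a differed by -0.04 and Tuba8 by 0.09 on the log2 scale, neither past the test.

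Among beta tubulins, the partners of alpha tubulin in the subunit, 7 of 8 had a log2 difference above 0, beside 7469 of all 16151 tested genes. Limma called none of the 8, and their median was 0.14 beside -0.01 for all genes. Tubb2b, a neuronal beta tubulin, ran from 8587 to 12717 in Tuba1c-high strains, with a median of 10436, and from 7896 to 12307 in Tuba1c-low strains, with a median of 8521.5. Its log2 difference was 0.23 ± 0.08 (limma, unadjusted p = 0.00475, adjusted p = 0.96). Tubb3, at 97345.4 ± 9709.2 in Tuba1c-high and 94013.1 ± 10758.1 in Tuba1c-low strains, differed by 0.05. Tubb5, Tubb2a, Tubb4a and Tubb4b, further beta tubulins of the ganglia, differed by 0.15, 0.15, 0.13 and 0.13. Tubb6 differed by -0.11. Tubb1, a beta tubulin known from platelets, was low in the ganglia, at 22.9 ± 17.1 in Tuba1c-high and 11.8 ± 10.8 in Tuba1c-low strains.

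The gamma-tubulin genes, whose products nucleate microtubules, also remained short of the threshold. Tubgcp5, a subunit of the gamma-tubulin ring complex, averaged 802.1 ± 47.5 in Tuba1c-high and 911.2 ± 84.9 in Tuba1c-low strains, and all 7 Tuba1c-high strains lay below the median of the Tuba1c-low strains (limma, log2 difference -0.18 ± 0.06, adjusted p = 0.96). Tubg1, the gamma tubulin of the same complex, differed by 0.15 on the log2 scale, but by -0.02 in RwwJ strains alone. Tubg2 differed by 0.04, Tubgcp2 by 0.04, Tubgcp3 by 0.02, Tubgcp4 by -0.02 and Tubgcp6 by -0.03. Tubd1 and Tube1, the delta and epsilon tubulins of centrioles, differed by -0.20 and -0.11.

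Genes that make, modify or bind tubulin were compared as lists, with limma calling 0 members in each. Counts of members above 0 stand beside 7469 of 16151 for all tested genes. For tubulin folding, which includes the CCT chaperonin and the tubulin cofactors, 18 of 20 members had a difference above 0, with a median of 0.06, or -0.07 in RwwJ strains alone. Cct7 differed by 0.05, Cct5 by 0.05 and Cct8 by 0.06, and the largest difference was that of the cofactor Tbcb, at 0.22. Ttc5, which recognises tubulin as it leaves the ribosome when tubulin mRNA is being degraded, differed by -0.02, and the 5 genes of that pathway had a median of -0.01, with Cnot1 at -0.07, Cnot7 at 0.07 and Scaper at -0.01. For enzymes that modify tubulin after translation, 8 of 21 lay above 0 with a median of -0.01, or 0.09 in RwwJ strains alone. Ttl, the tubulin tyrosine ligase, differed by 0.07, while Ttll7 and Agtpbp1, which add and remove glutamates of tubulin tails, both differed by 0.00 after rounding. For microtubule-associated proteins, 24 of 34 lay above 0 with a median of 0.05, where Map1b differed by 0.00, Stmn2 by 0.09 and Stmn3 by 0.10. Among neuronal intermediate filaments, the neurofilament genes Nefl, Nefm and Nefh differed by 0.10, 0.00 and -0.05.

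The neighbours of Tuba1c were compared because genes close on a chromosome are mostly inherited together in these lines. Of the nearest 40 tested genes, limma called 0, and 5 had an unadjusted p under 0.05 (12.5%, beside 3.96% of all genes). No neighbour separated the levels, and 36 of the 40 differed by less than 0.25 on the log2 scale. Toward the proximal side, Kmt2d, a histone methyltransferase, differed by -0.24, Rhebl1 by 0.09, Dhh, a hedgehog ligand of Schwann cells, by -0.01 and Lmbr1l by 0.06, followed by Tuba1b and Tuba1a. Toward the distal side, C1ql4 differed by 0.35, Dnajc22 by 0.03, Spats2 by 0.02, Kcnh3, a potassium channel, by 0.05 and Mcrs1 by 0.06. None of these passed the test.

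Prph, the gene next to Tuba1c on its distal side, encodes peripherin, an intermediate filament protein of peripheral neurons. It ran from 54679 to 78205 in Tuba1c-high strains, with a median of 62940, and from 43576 to 69900 in Tuba1c-low strains, with a median of 57072.5. The levels overlapped, with 2 Tuba1c-high strains above all Tuba1c-low strains (limma, log2 difference 0.18 ± 0.08, unadjusted p = 0.0256, adjusted p = 0.96). Ccdc65, a ciliary protein gene 12 tested genes to the proximal side, had the smallest p among the 40 neighbours, at 58.6 ± 14.7 in Tuba1c-high and 39.4 ± 13.4 in Tuba1c-low strains (limma, log2 difference 0.60, adjusted p = 0.96).

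Across all of chromosome 15, limma called 0 of 605 tested genes, and 35 had an unadjusted p under 0.05. That share, 5.79%, was the highest of 20 chromosomes, of which chromosome 3 had the lowest at 2.62%, and it was followed by 5.74% on chromosome 16 and 5.42% on chromosome 18. The exact rank-sum test called 0 genes on chromosome 15, with 41 at an unadjusted p under 0.05. Counted outward from Tuba1c, 3 of the 20 genes just proximal to Tuba1c and 7 of the next 30 had an unadjusted p under 0.05, beside 3.96% of all genes. The next 50 on the proximal side held 4 (8.0%), and the 415 beyond them held 16 (3.86%). On the distal side, the first 20 genes held 2, the next 30 held 0 and the last 40 held 3 (7.5%). These counts describe neighbouring genes that are not independent of each other, and the position of Tuba1c was known when the intervals were set.

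The genes of chromosome 15 with the smallest p are named after their values were seen. Hdac7, a histone deacetylase, averaged 493.6 ± 103.3 in Tuba1c-high and 637.8 ± 95.7 in Tuba1c-low strains, and lay below the median of the Tuba1c-low strains in 7 of 7 Tuba1c-high strains (limma, log2 difference -0.38, adjusted p = 0.96). Vdr, the vitamin D receptor, had a median of 50 in Tuba1c-high and 25.5 in Tuba1c-low strains. Irak4, a kinase of interleukin-1 and Toll-like receptor signalling, averaged 227.4 ± 41.4 in Tuba1c-high and 158.1 ± 52.0 in Tuba1c-low strains. Neither Vdr nor Irak4 passed (limma, adjusted p = 0.96 for both), and the levels overlapped for both. A window of 21 neighbouring genes from Pus7l to Tmem106c, centred 36 genes proximal to Tuba1c, held 7 genes with an unadjusted p under 0.05. Another window, on chromosome 4, also held 7, and these were the highest counts of any window in the genome.

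**Figure D4:**
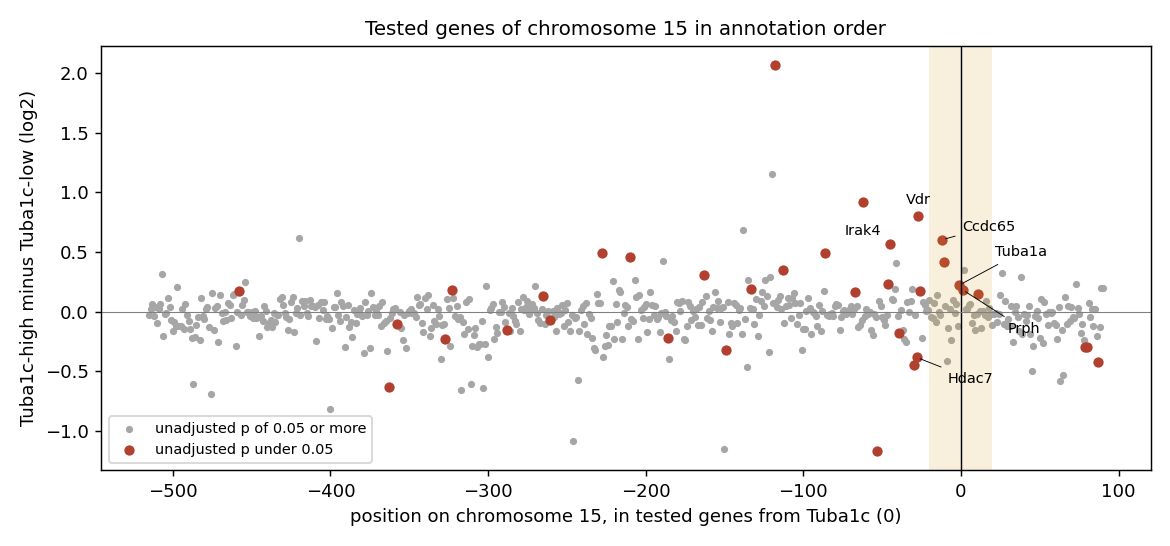
Log2 difference of Tuba1c-high minus Tuba1c-low strains (y axis) for 605 tested genes of chromosome 15, in annotation order counted in genes from Tuba1c at 0 (x axis). Red points have an unadjusted limma p under 0.05, and the shaded band holds the nearest 40 genes. No gene passed after adjustment, and most genes in the band lie close to 0.

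The groups are named by the level of Tuba1c and not by an allele. The rule takes the split to stand for the parental allele at the tubulin cluster on chromosome 15. No tested gene of that chromosome separated the strains as Tuba1c did, and whether a difference at the cluster would reach genes other than Tuba1c was not tested. Genotypes were not analysed here, so which parent gave either level, and whether the strains of a level share an allele at Tuba1c or at another locus, was not tested.

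A further comparison asked which genes divided the strains as Tuba1c does. Besides Tuba1c, 193 genes had a gap of at least 1 on the log2 scale between 2 sets of at least 5 strains. Gm14150 put all 25 strains on the same side as Tuba1c. Its separation of the levels is given above, and Gm14150 shares sequence with Tuba1c, so this agreement is not an independent measure of the split. ENSMUSG00000086809 divided 23 of 25 strains as Tuba1c did, in the opposite direction. The next 10 genes reached 19 of 25. Those in the same direction as Tuba1c were the processed pseudogenes Gm12328, Gm6065, Rps15a-ps7 and the tubulin pseudogene Gm15599, on chromosomes 11, 7, 2 and 17. Each of these divided the strains into 20 lower and 5 higher, and how much agreement such set sizes give by chance was not tested. In the opposite direction were Myoc, Mybpc1, Myh2, Fam205c, Hcar1 and 1700030C10Rik. Rps15a-ps7, a processed pseudogene on chromosome 2, is 1 of the 40 tested genes nearest to Gm14150. Over the 193 genes the median was 14, where 13 is the lowest agreement possible. The 5 such genes on chromosome 15 agreed for 13 to 17 strains. Pnpla5, a lipase gene 118 tested genes proximal to Tuba1c, agreed for 17, and Tcea1-ps1, the nearest at 59 genes, agreed for 14.

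The labelled tissue was present at both levels: the summed scaled counts of 10 pan-neuronal markers ran from 251215 to 312831 in Tuba1c-high and from 228313 to 310976 in Tuba1c-low strains. In whole ganglia, fewer cells of a type and less RNA per cell cannot be told apart. Across all 24 lists, limma called 0 of 227 tested members, and 13 had an unadjusted p under 0.05 (5.73%, beside 3.96% of all genes). Of all 16151 tested genes, 7469 had a difference above 0 and 8682 below 0. All 6 markers of non-peptidergic nociceptors had a difference above 0, with a median of 0.20, and P2rx3, an ATP-gated channel, averaged 7482.6 ± 857.6 in Tuba1c-high and 6471.8 ± 890.5 in Tuba1c-low strains (limma, log2 difference 0.21, adjusted p = 0.96). The 6 peptidergic markers had a median of 0.16, or -0.02 in RwwJ strains alone, with Calca, the CGRP gene, at 0.18. All 10 markers of myelinating Schwann cells had a difference below 0, with a median of -0.15, as had all 8 macrophage markers, with a median of -0.23. Among regeneration-associated genes, 16 were tested with a median of -0.05. Sprr1a, which injured sensory neurons induce, had the lowest difference at -1.55 (6.4 ± 5.5 in Tuba1c-high and 35.2 ± 75.1 in Tuba1c-low strains, limma adjusted p = 0.96). Its levels were low, with a median of 7 in Tuba1c-high and 13 in Tuba1c-low strains, and the highest Tuba1c-low value was 326.

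Markers of adjacent tissue varied widely at both levels. The sum of 9 spinal cord markers ran from 396 to 5056 in Tuba1c-high and from 262 to 15662 in Tuba1c-low strains, with 9 of 9 log2 differences above 0. The mean scaled count ran the other way, with 0 of 9 markers higher in Tuba1c-high strains. The median log2 difference of the list was 0.23, or -0.21 without BXD44. The sum of 8 skeletal muscle markers ran from 380 to 18079 in Tuba1c-high and from 439 to 44926 in Tuba1c-low strains, with 8 of 8 log2 differences below 0. The median of this sum ran the other way, at 5783 in Tuba1c-high and 4115 in Tuba1c-low strains. No marker of either list was at 0 in every strain. With the scores of the spinal cord, muscle, erythroid and Schwann cell lists as terms in the fit, the log2 difference was 3.31 for Gm14150 and -1.98 for ENSMUSG00000086809, and both passed (limma, adjusted p = 1.09e-08 and 0.0014).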

How the data were processed

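Values came from 1 deposited table with 1 column for each of 25 strains. They were normalized scores: the authors had rescaled the read counts of each library and rounded them, and the upper quartile was 1478 to 1478.25 in every column. The submitters' processing notes name TopHat2 2.0.9, HTSeq and CASAVA 1.8.0, and the builds mm9 and NCBIM37. No source used here gives the scaling tool or how reads with several matches were handled. Per the labels' protocols, the kit was Illumina TruSeq v2, in which strand is not marked.

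Totals were 25064524 to 26860283 scaled counts in Tuba1c-high and 24637919 to 26611472 in Tuba1c-low strains. The step between low values was clear in 20 of 25 libraries and gave an estimated 20610000 to 27420000 reads in 4 Tuba1c-high and 20040000 to 40180000 in 16 Tuba1c-low strains. The cutoff for a clear step, a correlation of 0.6, was set after the values were seen.

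Of 16220 identifiers, 15697 were in GENCODE M21 (GRCm38). This is a later build than that of the table, so M21 was used for names, exon lengths, chromosomes, gene order and sequence identity. The sequences themselves are not reported here. Tests used log2(scaled count + 1), which understates changes of low genes, and limma 3.58.1 (R version 4.3.3), with a trended prior, two-sided, adjusted over 16151 genes with a mean of at least 10. This left out Tuba1c and 68 low genes. No model of counts was fitted, since the values were not raw. Single values had an exact permutation test. Alternatives were another pseudocount, 2 other filters, array weights, TMM rescaling, an exact rank-sum test, the name ending as a term, each ending alone, tissue scores as terms and each strain left out.

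Genes were named by rule: all tubulins, called genes, the 6 tested genes on each side of Tuba1c and the 3 members of highest mean in each cytoskeleton list. Others stand beside a count, at the end of a range or, for cell types, tubulin cofactors and Ttc5, as examples chosen after their values were seen. The members and gene lists were chosen with earlier results of these data known. Lists not described in the text are large-diameter neuron, satellite glia, fibroblast, endothelium and mural, lymphocyte, adipose, erythroid and proliferation, with median log2 differences of -0.05, 0.01, -0.03, -0.20, -0.21, -0.17, 0.14 and -0.08, and neuronal intermediate filaments, with 0.05.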

Additional observations from a re-analysis of the deposited data

Results flagged for a closer look

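Of 57 genes examined within the 7 Tuba1c-high strains, 3 had a strain far from the others by Dixon's criterion (critical value 0.568), which chance meets in about 1 of 20 groups. Tube1, the epsilon tubulin gene, was 114 in BXD36 and 58 to 82 in the other Tuba1c-high strains. Syt10, a synaptotagmin gene on chromosome 15, was 58 in BXD21 and 24 to 37 in the others. Has2os, an antisense RNA on chromosome 15, was 15 in BXD44 and 8 to 11 in the others, and in libraries that do not mark the strand its reads cannot be told apart from those of an overlapping gene.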

How the results depend on the processing

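The direction held under every alternative for Gm14150, ENSMUSG00000086809, Tuba1a, Tuba1b, Tubb2b, Tubgcp5 and Prph. Of 56 named genes, 28 changed sign under at least 1 of 34 alternatives of the limma fit, and of the 16 with an unadjusted p under 0.05 only Tubg1 did. TMM rescaling moved the median of all genes to -0.0037 and changed the sign of no list median. The number of genes called was 1 in place of 2 with a mean of at least 50, where the filter left out ENSMUSG00000086809, and 1 in RwwJ strains alone, which held 9 strains. It was 0 with the exact rank-sum test, which also called 0 genes on annotated chromosomes other than 15, in place of 1. With 7 against 18 strains the smallest adjusted p that the rank test allows for a single gene is 0.0672, the value of Gm14150, and ENSMUSG00000086809 had 0.168. Leaving out each strain in turn gave 2 to 2 genes called, 0 to 0 on chromosome 15, 1 to 1 on other annotated chromosomes, and 0 to 0 among the nearest 40 genes, the tubulins and the lists. The log2 difference of Gm14150 ran from 3.20 to 3.38 without 1 strain and from 3.12 to 3.62 under the other 10 alternatives. For Tuba1a it ran from 0.17 to 0.26 and from 0.15 to 0.25. The share of chromosome 15 genes with an unadjusted p under 0.05 ran from 2.98% in RwwJ strains alone to 7.6% in TyJ strains alone. No paired analysis was possible because the replicate numbers were given in accession order and pair no strains. There was 1 library per strain, so the p-values measure the spread between strains, and depth limits low genes such as ENSMUSG00000086809 most.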
